A study of Mus musculus with 24 samples.

Results

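Messenger RNA was sequenced from 24 mouse tumors, and the comparison of the combination with control at day 14 took 6 of them by their labels alone. The IL-27+cabo group was the 3 intratibial tumors of mice 20, 22 and 24, given a plasmid for interleukin-27 and cabozantinib (cabo). The control group was the 3 intratibial tumors of mice 3, 5 and 7, given an empty plasmid and the vehicle, polyvinylpyrrolidone (PVP). All 6 hosts were male C57/BL6 mice of 8 to 10 weeks, and both groups carried TC2Ras-Luc, a mouse prostate adenocarcinoma line that makes luciferase, with 100000 cells placed in each tibia. The line derives from TRAMP-C2 cells carrying activated H-Ras. Plasmid (10 µg per muscle) entered the tibialis anterior muscle, which lies along the tibia, by ultrasound with microbubbles in both groups, so the controls share the injection and the sonoporation. Cabo at 30 mg/kg or 15% PVP was gavaged daily. The labels call the control plasmid pORF0, whereas the methods name pTSTA-ctrl and pTSTA-IL27pepL for these injections. RNA came from tumor sections, so each value describes a mixture of tumor and host cells. Tumors used for reference are cabo alone (mice 21, 25 and 27) and IL-27 alone (mice 4, 6 and 8) at day 14, and control (mice 9 and 13) and IL-27+cabo (mice 16 and 28) at the end of the study (EOS), when mice reached the ethical endpoint.

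Cabo blocks several receptor tyrosine kinases, among them the VEGF receptors, MET, AXL, RET, KIT and FLT3. VEGF receptor signaling drives the sprouting of new vessels. Tip cells lead each sprout, and their ligand DLL4 signals through Notch to hold neighbouring cells in place. Lymphatic vessels depend on FLT4 (VEGFR-3). IL-27, a cytokine made of EBI3 and the p28 chain encoded by Il27, acts on T cells and other leukocytes through IL27RA and GP130 (Il6st). Levels are counts scaled to library size (CPM, after TMM scaling), always in the order of mice 3, 5 and 7 for control and mice 20, 22 and 24 for IL-27+cabo, and where 2 sets are set against each other control comes before IL-27+cabo. Differences are log2 fold changes of IL-27+cabo over control with their standard error (SE), and p-values come from edgeR's quasi-likelihood F test, adjusted by the Benjamini-Hochberg method over all tested genes. A gene is said to be called, or to have risen or fallen, where the adjusted p of edgeR was under 0.05. Calls of DESeq2, which are more numerous, are named as such.

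Each library held 63729005 to 75305934 counts. Mouse 20 stood apart from the other 5 tumors. Its log2 CPM correlated with theirs at 0.906 to 0.913, against 0.985 to 0.992 among pairs of the others within a group, 21269 genes were detected in it against 22680 to 24028, and 4293 genes lay more than 2-fold outside the range of the other 5, against 7 to 79 genes in any of the others. Short transcripts (below the first length quartile) were high in it, by a median of 0.61 on the log2 scale over the mean of the 6 tumors, and long ones (above the third quartile) low, by -0.62, against -0.18 to -0.08 and 0.02 to 0.24 in the others. The fits were therefore also run without mouse 20, as 2 tumors against 3. Hras was at 22.7, 18.8 and 19.4 CPM in control and 84.5, 18.8 and 18.2 CPM in IL-27+cabo. The high Hras value was that of mouse 20, and the Hras log2 fold change went from 1.02 to -0.15 without it. Of the tumor line markers, Krt5 and Pbsn, markers of basal or differentiated prostate epithelium, had no count in any of the 6 tumors, and neither did Bglap, Bglap2 and Sost, which mark mature bone-forming cells and osteocytes. The simple epithelial keratin Krt8 was present, at 44.1, 28.004 and 49.0 CPM in control and 209, 49.1 and 63.99 CPM in IL-27+cabo tumors, highest in mouse 20.

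IL-27+cabo and control tumors differed in 12 genes. Mylk2 and Abra, genes of striated muscle, Asb16, an ankyrin repeat gene, and Cnksr1, a signaling scaffold, rose in the combination, and Esm1, Dll4, Kcne3, Flt4, Ephb1, Mest, Cd3e and Gm21541 fell. That was 4 genes higher, or 0.0213% of the 18750 tested, and 8 lower, or 0.0427%. The adjusted p was 0.0406 for each of the 12. Each tumor is 1 library from 1 mouse, so the p-values measure the spread between these tumors, and in bulk RNA fewer cells of a type and less RNA per cell cannot be told apart. At a p under 0.05 without adjustment and a log2 fold change of 1.5 or more in size, 489 genes (2.61%) were higher and 193 (1.03%) lower. These limits are those given with the study's results, while its methods put the same figure on the plain fold change. The groups did not overlap for 1411 genes that were higher (7.53%) and 1428 that were lower (7.62%). Without mouse 20 there were 93 higher genes (0.478% of 19456) and 82 lower genes (0.421%) with an adjusted p under 0.05, and these included all 12. DESeq2 called 291 genes higher (0.992% of the 29340 with a fold change) and 157 lower (0.535%) in the 6 tumors, and 522 (1.81% of 28894) and 394 (1.36%) without mouse 20. EdgeR with all day 14 groups in 1 fit called 6 higher (0.0302%) and 24 lower (0.121%), with 8 of the 12 genes among them and Abra, Asb16, Cnksr1 and Cd3e lost. Without mouse 20 that fit called 21 higher (0.102%) and 39 lower (0.19%), and lost the same 4. Without any one of the other 5 tumors no gene was called by edgeR, with 747 to 1772 genes at an unadjusted p under 0.05. The 12 genes kept their direction under every alternative tried. With the mean log2 level of 25 skeletal muscle genes as a covariate 0 genes were called by edgeR and 152 had an unadjusted p under 0.05. That muscle score was 0.06 to 2.68 in control and 5.15 to 6.81 in IL-27+cabo tumors, with no overlap, so the score and the treatment cannot be told apart in these 6 tumors. Mouse 8 of IL-27 alone had a score of 5.82, within the range of the combination, and held Dll4 at 11.3 CPM and Esm1 at 5.88 CPM. Its T cell genes summed to 26.4 CPM, below the 29.1 to 34.9 CPM of the combination and the 104 to 111 CPM of control. Mouse 8 is 1 tumor of another treatment, and whether muscle content bears on these levels was not tested.

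**Figure D1:**
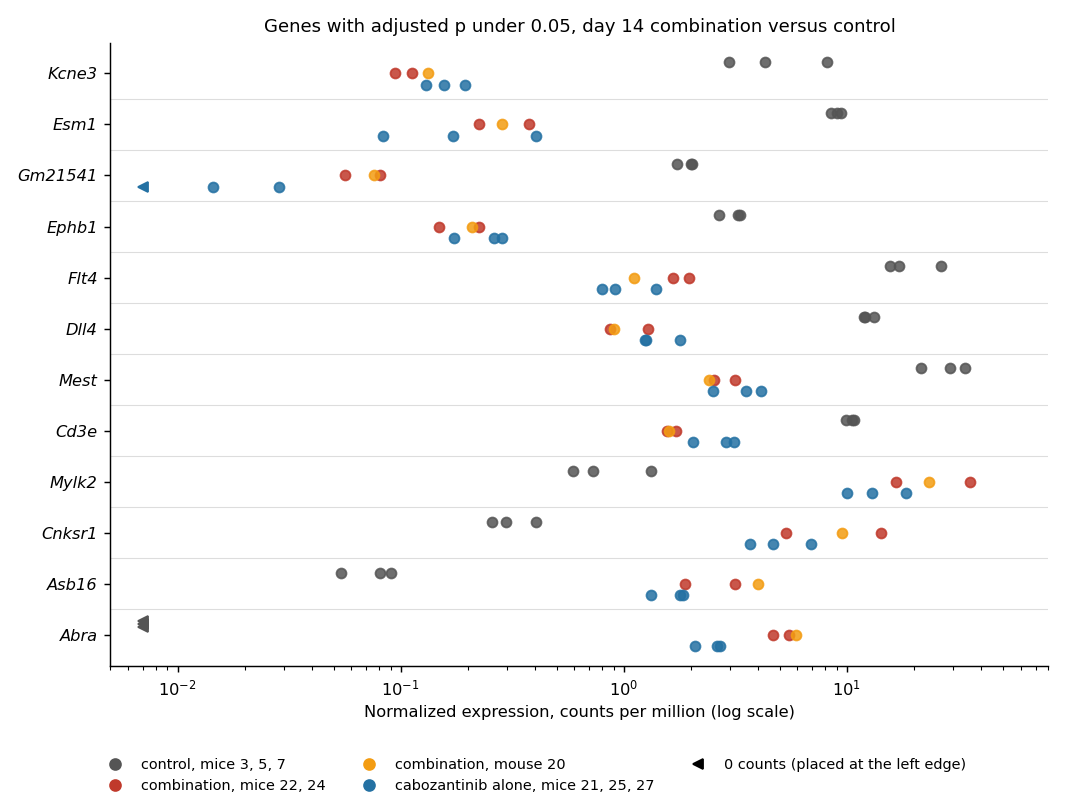
Level of the 12 genes with an adjusted p under 0.05 in each day 14 tumor, in CPM on a log axis, with 1 point per tumor for control (grey), IL-27+cabo (red, mouse 20 in orange) and cabo alone (blue) tumors, and triangles for tumors without a count. The control and IL-27+cabo points do not overlap for any of the 12 genes, and mouse 20 lies with mice 22 and 24 or close to them.

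The stretch before the start of 3 of these genes is shown as examples of the genes that fell (Dll4 and Esm1, of sprouting endothelium) and that rose (Asb16), with patterns chosen after the sequences were viewed. Sequences are those of RefSeq on GRCm38.p6, 250 bases before the start of transcription, 5′ to 3′ on the plus strand. The gene coordinates given for the called genes are those of GENCODE, whose start for Asb16 lies a few bases upstream of the RefSeq start, so that the end of its window falls inside the GENCODE gene. Dll4 occupies chr2:119325534-119325783, Esm1 chr13:113209409-113209658 and Asb16 chr11:102268501-102268750. In Dll4 and Esm1 capitals mark GGAA on either strand, the core letters that ETS factors bind, and in Asb16 they mark a MEF2 match followed by the E-box CAGCTG, letters bound by myogenic factors.
Dll4: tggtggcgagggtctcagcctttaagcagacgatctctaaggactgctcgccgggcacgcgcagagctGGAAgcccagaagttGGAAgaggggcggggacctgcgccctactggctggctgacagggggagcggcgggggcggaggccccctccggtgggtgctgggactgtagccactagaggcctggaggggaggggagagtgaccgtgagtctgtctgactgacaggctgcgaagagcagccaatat
Esm1: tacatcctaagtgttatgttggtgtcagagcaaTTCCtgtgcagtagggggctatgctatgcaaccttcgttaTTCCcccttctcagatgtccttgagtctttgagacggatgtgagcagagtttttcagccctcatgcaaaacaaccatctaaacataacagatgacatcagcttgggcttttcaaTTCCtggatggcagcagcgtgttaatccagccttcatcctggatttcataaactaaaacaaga
Asb16: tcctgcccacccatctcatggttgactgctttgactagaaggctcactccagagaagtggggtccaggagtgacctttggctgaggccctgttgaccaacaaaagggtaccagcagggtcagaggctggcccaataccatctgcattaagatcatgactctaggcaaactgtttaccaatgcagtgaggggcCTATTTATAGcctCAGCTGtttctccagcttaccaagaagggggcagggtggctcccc
GGAA occurred 2 times before Dll4 and 3 times before Esm1, and of all 32851 RefSeq promoter windows of this length 76.8% hold it at least 2 times and 54.7% at least 3 times. The MEF2 pattern occurred in 2.92% of the windows and CAGCTG in 13.001%. The window before Cnksr1 held neither of these muscle patterns. These matches describe letters and were not tested as sites.

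Genes of tip cells and Notch signaling were lower in IL-27+cabo tumors. Esm1 (endocan), a proteoglycan secreted by tip cells, stood at 8.49, 8.99 and 9.37 CPM in the control and at 0.284, 0.376 and 0.224 CPM in the IL-27+cabo tumors, a log2 fold change of -4.91 ± 0.36 (-4.90 without mouse 20). Its gene lies at chr13:113209659-113218098 on GRCm38 and overlaps Gzmk on the other strand. Dll4, at chr2:119325784-119335962, fell from 11.9, 12.01 and 13.2 to 0.908, 1.28 and 0.868 CPM (-3.59 ± 0.30). Kcne3, a potassium channel subunit, fell from 8.13, 4.31 and 2.97 to 0.132, 0.0941 and 0.112 CPM (-5.48 ± 0.55). All 3 were low in every combination tumor, mouse 20 included.

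Of the 17 members of the tip cell and Notch list that passed the filter, 3 fell and none rose, and 10 were lower without overlap. The list median was -1.20 on the log2 scale, beside 0.05 over all tested genes. The Notch target Hey1 and the adhesion molecule Mcam (CD146) also fell in the fit without mouse 20. Hey1 was at 2.82, 3.55 and 2.82 CPM against 1.30, 0.659 and 0.602 CPM (-2.29 without mouse 20, edgeR adjusted p = 0.0287). Mcam was at 55.1, 53.2 and 31.7 CPM against 8.04, 12.6 and 14.6 CPM (-1.79, edgeR adjusted p = 0.0363), with the lowest value in mouse 20. The highest value of the list was 0.42. With all day 14 groups in 1 fit and mouse 20 left out, Hey1 was called and Mcam was not. DESeq2 called 6 members lower in all 6 tumors and 9 without mouse 20.

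Ephb1, a receptor for ephrin-B ligands that guides axons and vessels, fell from 3.24, 3.31 and 2.67 to 0.208, 0.148 and 0.224 CPM (-3.97 ± 0.40). Mest, an imprinted gene, fell from 33.9, 28.9 and 21.5 to 2.42, 2.53 and 3.16 CPM (-3.37 ± 0.29). It overlaps Copg2 and Mir335. Each of the 3 IL-27+cabo tumors was below each control tumor by a wide margin in both genes. Ednrb, the endothelin B receptor, stood at 22.8, 23.6 and 26.7 CPM against 3.74, 6.01 and 4.90 CPM, with an adjusted p of 0.0623 for all 6 tumors and 0.0122 from the same edgeR test without mouse 20 (-2.18 ± 0.18).

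The general endothelial markers were lower as a list, with no member called by edgeR in all 6 tumors. With all day 14 groups in 1 fit, mouse 20 included, edgeR called 1 of the 20 lower. DESeq2 called 5 of the 20 lower in all 6 tumors and 12 without mouse 20. Of 20 tested, 17 had a negative log2 fold change, 11 were lower without overlap and the median was -1.01. Emcn (endomucin, a capillary and venous surface protein) was at 20.3, 19.1 and 13.8 CPM in control and 3.67, 3.12 and 3.96 CPM in IL-27+cabo (-2.30 ± 0.28, adjusted p = 0.0623 from edgeR). Without mouse 20, 7 of the 20 fell, namely Tie1, Kdr, Cldn5, Egfl7, Emcn, Plvap and Gpihbp1, and the median was -1.14. With all day 14 groups in that fit 4 of these were called, and the calls of Kdr, Egfl7 and Plvap were lost. Mouse 20 had more RNA of several of these than mice 22 and 24. Gpihbp1, which carries lipoprotein lipase across capillaries, was at 11.03, 14.7 and 9.68 CPM against 5.71, 0.793 and 1.22 CPM. The tight junction gene Cldn5 was at 6.23, 9.73 and 9.36 CPM against 5.09, 1.08 and 1.27 CPM, and the angiogenic factor gene Egfl7 at 15.8, 17.0 and 14.5 CPM against 32.7, 6.36 and 7.95 CPM. Its high level in mouse 20 put the log2 fold change of Egfl7 at 0.02 in all 6 tumors and -1.15 without mouse 20. Pecam1, the pan-endothelial CD31, was at 63.2, 62.0 and 47.4 CPM against 27.3, 33.6 and 40.5 CPM (-0.76 ± 0.24, edgeR adjusted p = 0.541).

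Pericyte and smooth muscle genes did not share this pattern. Of 12 tested none was called by edgeR while DESeq2 called 1 higher and 1 lower, with or without mouse 20. The list had a median of 0.20 (-0.02 without mouse 20). The pericyte channel subunit Kcnj8 was the only one lower without overlap (4.08, 7.85 and 5.30 CPM against 2.04, 1.44 and 2.21 CPM, -1.59 ± 0.38). That was 1 of 12, near the 7.62% of all tested genes. Desmin (Des), which skeletal muscle also makes, was the highest of the list at a log2 fold change of 5.28. With only the compared groups fitted, none of the 10 basement membrane genes was called by edgeR (median -0.49, and -0.14 without mouse 20). With all day 14 groups in 1 fit edgeR called 0, and 1 lower without mouse 20. DESeq2 called 0 in all 6 tumors and 3 lower without mouse 20.

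Lymphatic endothelial genes were lower too. Flt4 fell from 17.1, 26.3 and 15.6 to 1.12, 1.65 and 1.96 CPM (-3.63 ± 0.36), and of 10 tested members 7 were lower without overlap, with a median of -1.95 (-1.79 without mouse 20). The lymphatic hyaluronan receptor Lyve1 was at 5.99, 8.77 and 13.6 CPM in control and 1.95, 2.58 and 2.63 CPM in IL-27+cabo tumors (-1.98 ± 0.39, edgeR adjusted p = 0.194). The lymphatic fate regulator Prox1 was at 2.00, 4.43 and 3.49 CPM against 0.567, 1.08 and 0.965 CPM (-1.92 ± 0.45, edgeR adjusted p = 0.290). Neither overlapped, and neither was called by edgeR. DESeq2 called 7 of the 10 list genes lower, with or without mouse 20. Flt4, Ccl21a, Mmrn1 and the chemokine scavenger Ackr2 fell in the fit without mouse 20. With all day 14 groups in that fit Flt4 was the 1 member of 10 called, and the other calls were lost. Ackr2 was at 1.61, 2.51 and 3.79 CPM against 0.0756, 0.121 and 0.0420 CPM, and Mmrn1, a multimerin of lymphatic cells, at 6.13, 11.2 and 10.5 CPM against 0.227, 1.79 and 0.979 CPM.

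Gm21541, at chr4:41903610-41904743, is a near copy of Ccl21a, the lymphatic chemokine that draws T cells and dendritic cells through CCR7. Its transcript of 870 bases differs from that of Ccl21a at 6 positions (99.3% identity), and Gm13304 and Ccl21b are 99.4% and 99.5% identical to it over 837 and 402 bases. Reads of these genes could be split among them by the counting, so the value of any single copy is uncertain. Gm21541 fell from 2.00, 2.02 and 1.74 to 0.0756, 0.0806 and 0.0560 CPM (-4.72 ± 0.46). Ccl21a was at 14.5, 19.1 and 17.3 CPM against 2.85, 2.30 and 1.36 CPM (-2.96 ± 0.37, adjusted p = 0.0623 from edgeR). The sum over the 4 copies does not depend on such a split. It was 20.2, 26.2 and 24.8 CPM in control and 3.01, 2.65 and 1.57 CPM in IL-27+cabo tumors. In the single treatments it was 1.01, 0.111 and 1.07 CPM in cabo alone, and 9.34, 23.5 and 14.6 CPM in IL-27 alone. The sum was lower in all IL-27+cabo tumors than in any control. Gm13304 and Ccl21b were added after their values were seen.

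Among the receptors that cabo inhibits, the VEGF receptors were lower in RNA while MET and the TAM family (Axl, Mertk and Tyro3) overlapped. Besides Flt4, Kdr (VEGFR-2) was at 30.01, 31.4 and 17.3 CPM in control and 3.93, 8.41 and 7.40 CPM in IL-27+cabo (-1.99 ± 0.38, adjusted p = 0.189 from edgeR, and 0.0494 without mouse 20, where it was called at -1.74). Flt1 (VEGFR-1) was at 37.8, 62.0 and 68.3 CPM against 12.97, 24.9 and 21.7 CPM (-1.50 ± 0.34). Kit, the stem cell factor receptor that mast cells carry, was at 5.9995, 10.5 and 9.56 CPM against 2.34, 3.66 and 3.96 CPM (-1.39 ± 0.35). These 3 were lower without overlap, as was Flt4. Ret was higher without overlap, at 0.513, 0.386 and 0.620 CPM and 2.14, 1.51 and 1.34 CPM (1.72 ± 0.43, edgeR adjusted p = 0.327), all low levels. It was the only such receptor, 1 of 12, near the 7.53% of all tested genes. Met, the receptor of HGF, was at 93.2, 58.9 and 60.7 CPM against 26.0, 99.2 and 77.0 CPM. Axl, a receptor of GAS6, was at 655, 572 and 545 CPM against 242, 583 and 507 CPM, and Mertk at 36.4, 34.8 and 36.1 CPM against 6.96, 40.1 and 45.4 CPM. In these 3 the groups overlapped and mouse 20 held the lowest value. Tyro3, Tek, Flt3 and Ntrk2 overlapped too, with log2 fold changes from -0.30 to 0.07. Ros1 was below the filter. In all 1 of 12 tested receptors fell by edgeR, and 2 did without mouse 20, or 1 (Flt4) with all day 14 groups in that fit. DESeq2, which tested 13, called 4 lower and 1 higher, with or without mouse 20.

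**Figure D2:**
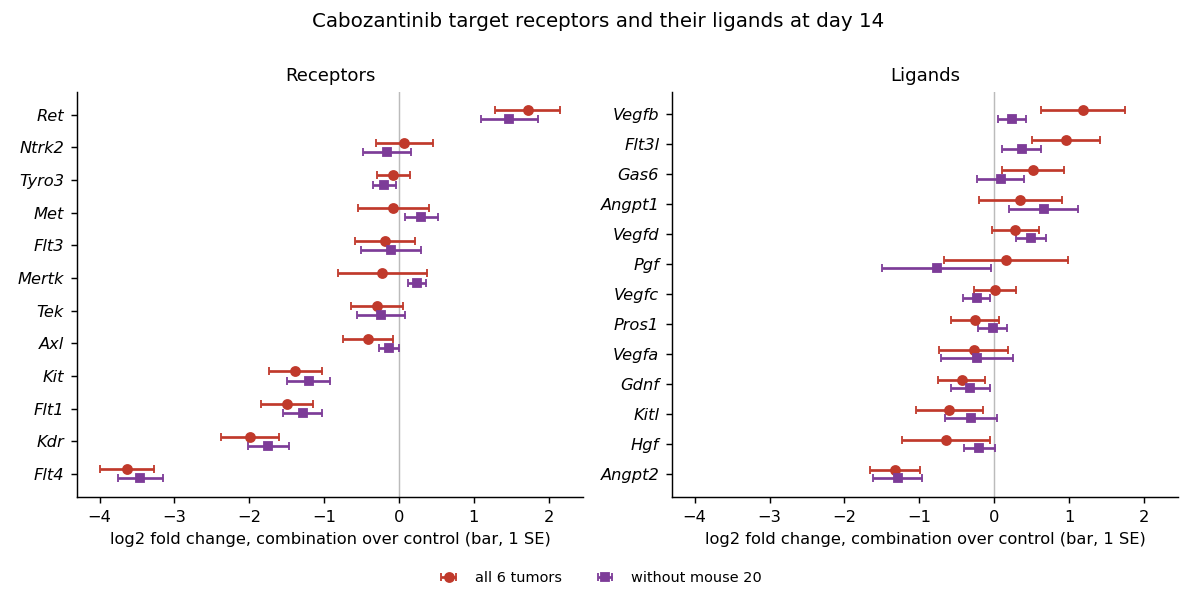
Log2 fold change of IL-27+cabo over control at day 14 for the 12 tested receptors (left) and 13 ligands (right), with bars of 1 SE, for all 6 tumors (red circles) and without mouse 20 (purple squares). Flt4, Kdr, Flt1 and Kit lie left of 0 and Ret right of it, and Angpt2 is the ligand farthest left.

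No ligand of these receptors was called by edgeR in 13 tested, with or without mouse 20, and DESeq2 called 1 lower in each case. Angpt2, which tip cells release and which counters TEK signaling, was the only ligand lower without overlap, 1 of 13. That share was near the 7.62% of all tested genes. Angpt2 was at 14.0, 21.8 and 29.7 CPM in control and 8.00, 8.01 and 10.0 CPM in IL-27+cabo tumors (-1.33 ± 0.33, adjusted p = 0.327 from edgeR). Vegfa was at 71.3, 255 and 235 CPM against 140.0, 147 and 175 CPM, and the control values spanned those of IL-27+cabo. The median of the ligands was 0.01.

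T cell genes were lower in all 3 IL-27+cabo tumors. Cd3e, a chain of the T cell receptor complex, fell from 10.6, 10.8 and 9.87 to 1.59, 1.72 and 1.55 CPM (-2.67 ± 0.26, -2.68 without mouse 20). Summed over the 15 T cell genes the level was 111, 107 and 104 CPM in control and 30.7, 34.9 and 29.1 CPM in IL-27+cabo tumors, with no overlap. Of the 15, 1 fell and 12 were lower without overlap, with a median of -1.59. Without mouse 20, 9 fell (Cd3d, Cd3e, Cd3g, Cd247, Cd4, Lck, Zap70, Cd2 and Cd5), at a median of -1.60 beside -0.01 over all genes. These calls of edgeR, Cd3e included, were lost with all day 14 groups in 1 fit, which called 0 of the 15 with or without mouse 20 (Cd3e adjusted p = 0.157 and 0.204), while DESeq2 called 8 lower in all 6 tumors and 13 without mouse 20. Cd4 itself was at 22.1, 18.2 and 20.5 CPM in control and 2.95, 7.03 and 6.49 CPM in IL-27+cabo tumors. The receptor-proximal kinase Zap70 was at 9.99, 8.37 and 9.72 CPM against 1.10, 2.02 and 1.68 CPM. Cd8a and Cd8b1, the CD8 chains of cytotoxic T cells, were higher without overlap, both at low levels. Cd8a was at 0.351, 0.425 and 0.0809 CPM against 0.529, 2.08 and 0.700 CPM (1.95 ± 0.81, edgeR adjusted p = 0.799). Cd8b1 was at 0.216, 0.193 and 0.189 CPM against 1.61, 0.632 and 0.448 CPM (2.17 ± 0.65, edgeR adjusted p = 0.495).

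Tox, Cxcr5 and Izumo1r, genes linked to exhausted or follicular helper T cells, were picked after their values were seen and fell in the fit without mouse 20. Tox was at 5.04, 5.15 and 5.502 CPM against 0.567, 0.753 and 0.420 CPM (edgeR adjusted p = 0.0170 without mouse 20, and 0.0623 with it). Cxcr5 was at 3.30, 3.57 and 3.88 CPM against 0.303, 0.470 and 0.210 CPM (adjusted p = 0.0252 and 0.0684). Izumo1r was at 4.84, 5.48 and 4.76 CPM against 0.416, 0.430 and 0.168 CPM (adjusted p = 0.0175 and 0.0623). The combination tumors lay far below the controls in each, and the calls were lost with all day 14 groups in that fit, as was that of Il21. Il21, a cytokine made by follicular helper T cells, was at 2.41, 2.58 and 2.64 CPM in the control tumors and had no count in the 3 IL-27+cabo tumors, which makes it at least 54.8-fold lower against a floor of 3 counts per library (adjusted p = 0.0526, and 0.0122 without mouse 20). Of 10 checkpoint genes edgeR called 0 and DESeq2 2, both lower, in all 6 tumors (2 higher and 3 lower without mouse 20), and the receptors Pdcd1 (PD-1) and Lag3 fell in the fit without mouse 20. With all day 14 groups in that fit 0 of the 10 were called. Pdcd1 was at 8.01, 8.11 and 8.52 CPM against 2.55, 3.62 and 2.83 CPM, and Lag3 at 10.0, 8.16 and 9.67 CPM against 3.95, 1.98 and 1.39 CPM. All 8 genes of regulatory T cells had a negative log2 fold change (median -0.68), and edgeR called none, while DESeq2 called 2 lower without mouse 20. Of the 8, 5 were lower without overlap, beside 7.62% of all tested genes. Without mouse 20 the genes of regulatory T cells ran from -1.74 to 0.12, with a median of -0.67. Foxp3, their defining factor, was at 3.96, 3.77 and 4.14 CPM and 1.25, 3.48 and 2.78 CPM (-0.66 ± 0.42, and -0.35 without mouse 20).

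The T cell genes were low in cabo tumors as well, at summed levels of 45.7, 44.4 and 31.4 CPM, and in IL-27 alone they were at 104, 17.9 and 26.4 CPM, as high as control in mouse 4 and low in mice 6 and 8. At EOS the sums were 23.1 and 20.9 CPM in control and 9.14 and 15.01 CPM in IL-27+cabo tumors, all below the day 14 controls. The day 14 control tumors were thus the ones rich in T cell RNA, together with mouse 4.

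**Figure D3:**
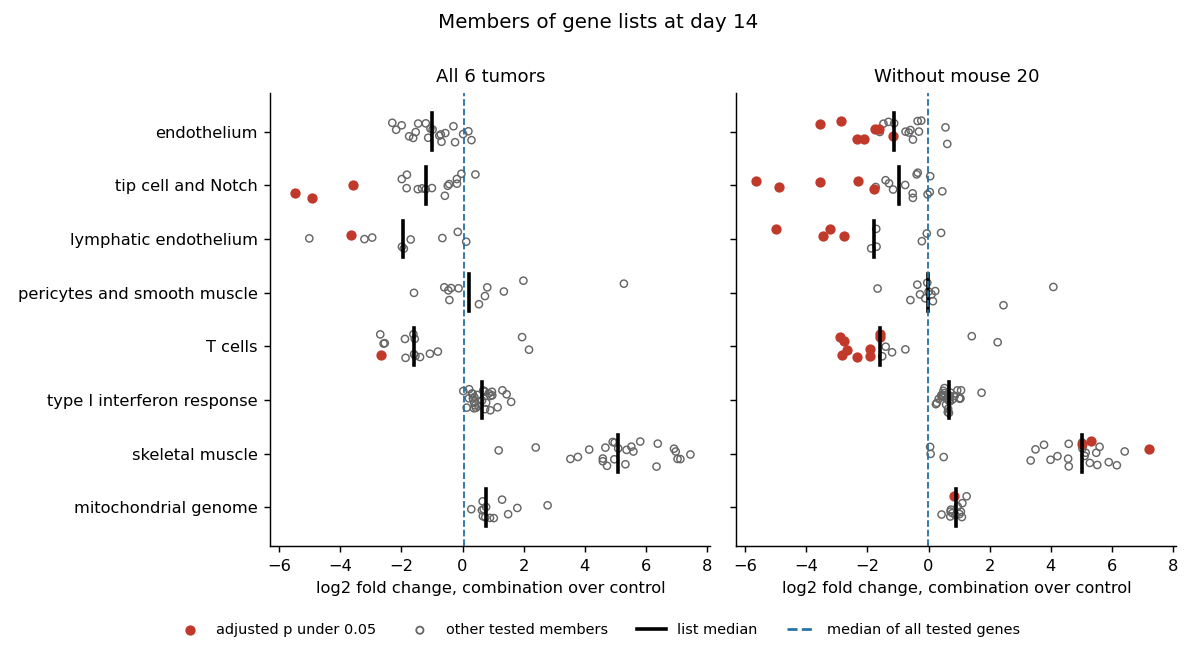
Log2 fold change of IL-27+cabo over control for each tested member of 8 gene lists, with all 6 tumors (left) and without mouse 20 (right). Filled red points had an adjusted p under 0.05, black bars are list medians and the dashed line is the median of all tested genes. Most endothelial, tip cell, lymphatic and T cell genes lie left of the line and skeletal muscle genes right of it, at medians of 5.09 and 5.03.

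Of the 16 genes of IL-27 and its signaling edgeR called 0 and DESeq2 1, lower, in all 6 tumors, and the median was 0.02. Il27 was at 0.230, 0.232 and 0.0405 CPM in control and 0.813, 0.296 and 0.140 CPM in IL-27+cabo tumors, and Ebi3 at 4.28, 1.35 and 1.69 CPM against 5.54, 3.32 and 2.83 CPM, with overlap in both. The receptor gene Il27ra was lower without overlap, at 7.84, 6.89 and 6.31 CPM against 3.35, 3.92 and 5.33 CPM (-0.73 ± 0.30, adjusted p = 0.784 in edgeR), and so was Tbx21, the factor of type 1 helper cells, at 1.05, 1.00 and 1.19 CPM against 0.227, 0.645 and 0.532 CPM. Il21 was the third such gene.

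All 29 type I interferon response genes had a positive log2 fold change, from 0.02 to 1.59 with a median of 0.64 (0.66 without mouse 20), and none passed edgeR's test, while DESeq2 called 0 in all 6 tumors and 1 higher without mouse 20. Of the 29, 3 were higher without overlap, a share near the 7.53% of all tested genes. The antiviral enzyme gene Oas2, one of them, was at 6.19, 7.03 and 3.43 CPM in control and 7.87, 22.4 and 14.9 CPM in IL-27+cabo (1.44 ± 0.46, adjusted p = 0.536 in edgeR). Across tumors the mean log2 level of the list was 4.303, 4.599 and 3.86 in control, 4.56, 5.31 and 4.54 in IL-27+cabo, 4.47, 5.17 and 4.59 in cabo and 2.89, 2.49 and 3.93 in IL-27 tumors. The IL-27+cabo, cabo and control ranges overlapped, and mice 4 and 6 of IL-27 alone were the lowest. The 19 interferon gamma response genes had a median of 0.58 (0.72 without mouse 20) and the 9 MHC class II genes one of 0.94 (0.23 without mouse 20), and 0 of either list were called by edgeR. DESeq2 called 1 interferon gamma response gene higher without mouse 20.

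Of 15 chemokine genes tested edgeR called none and DESeq2 1 higher (2 without mouse 20), while 5 were higher without overlap and the median was 0.76 (0.39 without mouse 20). Ccl8 was at 2.77, 1.62 and 1.71 CPM in control and 24.1, 5.19 and 4.81 CPM in IL-27+cabo tumors, and Ccl5, which recruits T cells and monocytes, at 16.1, 11.3 and 12.97 CPM against 97.5, 24.3 and 21.5 CPM. In both genes mouse 20 was by far the highest. Their log2 fold changes went from 2.51 and 1.85 to 1.28 and 0.75 without it.

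Of 15 macrophage genes 0 were called by edgeR or DESeq2 in all 6 tumors (2 higher by DESeq2 without mouse 20), with a median of 0.31, and without mouse 20 the integrin gene Itgam (CD11b) rose. It was at 73.2, 62.1 and 56.3 CPM in control and 24.4, 145 and 138 CPM in IL-27+cabo tumors, where mouse 20 lay below every control. Of 10 neutrophil and marrow granule genes 7 had a positive log2 fold change and 3 a negative one, with a median of 0.73 (0.18 without mouse 20), and edgeR called 0 and DESeq2 2, both lower. Ngp, a granule protein of immature neutrophils, was at 1.57, 1.85 and 1.60 CPM in control and without a count in the combination, at least 36.2-fold lower, and Camp, of the same granules, was at 0.270, 0.258 and 0.216 CPM in control and at least 5.35-fold lower. The adjusted p of Ngp was 0.0623 in edgeR's test, and 0.0131 without mouse 20 but above 0.05 there with all day 14 groups. Ighm, the heavy chain of IgM, was the one gene of 12 for B and plasma cells to fall without mouse 20, from 38.9, 37.9 and 32.9 to 12.8, 6.75 and 2.69 CPM. Its call was lost with all day 14 groups in that fit. DESeq2 called 1 of the 12 lower in all 6 tumors and 2 without mouse 20. None of the 13 NK cell, 9 dendritic cell, 6 mast cell and 7 erythroid genes tested was called by edgeR, and DESeq2 called 1 mast cell gene lower in all 6 tumors. Without mouse 20 DESeq2 called 1 mast cell and 1 NK cell gene lower and 1 dendritic cell gene higher.

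Skeletal muscle RNA was far higher in the IL-27+cabo tumors. Mylk2, the skeletal myosin light chain kinase at chr2:152911352-152923068, rose from 0.595, 1.33 and 0.728 to 23.3, 35.6 and 16.5 CPM (4.83 ± 0.49). Asb16, at chr11:102268743-102279462, rose from 0.0540, 0.0901 and 0.0809 to 4.01, 3.16 and 1.88 CPM (5.31 ± 0.53). Abra, an actin-binding protein at chr15:41864076-41869720, had no count in control and stood at 5.88, 5.52 and 4.65 CPM in IL-27+cabo, at least 134-fold higher. Cnksr1 rose from 0.297, 0.258 and 0.405 to 9.49, 14.3 and 5.33 CPM (4.92 ± 0.50). The groups were far apart in all 4. Fbxo40, a muscle ubiquitin ligase, was just outside the threshold with an adjusted p of 0.0509 in edgeR (0.0540, 0.296 and 0.0944 CPM against 12.1, 14.97 and 10.9 CPM). Fhl1, a muscle LIM protein gene, was at 2.58, 9.12 and 4.11 CPM against 120.4, 167 and 98.3 CPM and Kcnj11, an ATP-sensitive potassium channel, at 0.0811, 0.155 and 0.202 CPM against 3.95, 6.88 and 2.48 CPM. Fhl1, Kcnj11, Coq8a, Synpo2 and Txlnb were higher without overlap, with adjusted p-values from 0.0623 to 0.129, and all of them rose in the fit without mouse 20. Of these Synpo2 and Txlnb were also called there with all day 14 groups included, and the other 3 were not.

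All 25 genes of the skeletal muscle list were higher in IL-27+cabo tumors, 22 of them without overlap, at a median of 5.09. EdgeR called none of them in the 6 tumors, and Myh4, Ttn and Tnni2 rose without mouse 20. With all day 14 groups in that fit 0 of the 25 were called. DESeq2 called 20 of the 25 higher in the 6 tumors and 13 without mouse 20. Contractile genes varied among the controls. Actin (Acta1) was at 0.824, 44.6 and 7.26 CPM in control and 1168, 812 and 409 CPM in IL-27+cabo, and the fast myosin Myh4 at 0.595, 6.85 and 4.96 CPM against 309.6, 1066 and 187 CPM. The sum over the list was 49.8, 249.2 and 92.0 CPM in control and 5795, 5267 and 2092 CPM in IL-27+cabo. Cabo tumors were also high, at 1641, 2403 and 2441 CPM, and IL-27 tumors were at 78.7, 169 and 2641 CPM, high in mouse 8 alone. At EOS the sums were 52.3 and 95.8 CPM in control and 353 and 184 CPM in IL-27+cabo tumors. The mean log2 level of the list did not overlap between the compared groups, at 0.06, 2.68 and 0.94 in control against 6.81, 6.28 and 5.15 in IL-27+cabo.

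Among regulators of muscle, the myogenic factor Myf6 and the atrophy ligase Fbxo32 (atrogin-1) rose in the fit without mouse 20, and with all day 14 groups in that fit Fbxo32 was called and Myf6 was not. Myf6 was at 0.0540, 0.451 and 0.162 CPM against 12.3, 10.97 and 6.80 CPM, and Fbxo32 at 5.68, 7.16 and 8.08 CPM against 26.5, 60.5 and 31.9 CPM. The second atrophy ligase, Trim63 (MuRF1), was at 0, 0.785 and 0.351 CPM against 21.6, 37.2 and 14.6 CPM with an adjusted p of 0.223 in edgeR. Of 10 tested, 4 were higher without overlap, these 3 among them. Tendon and synovial genes were partly higher, with 3 of 10 higher and 1 lower without overlap. EdgeR called 0 of them and DESeq2 2, both higher. The list median was 1.74, and 0.51 without mouse 20. Prg4 (lubricin) was at 1.47, 2.29 and 1.15 CPM in control and 9.64, 6.96 and 4.03 CPM in IL-27+cabo, Fmod at 0.892, 1.89 and 0.796 CPM against 32.0, 4.97 and 4.62 CPM and Thbs4 at 6.22, 25.3 and 6.72 CPM against 60.4, 39.1 and 26.9 CPM. Of 7 nerve and Schwann cell genes 0 were called by edgeR (DESeq2 called 1 higher without mouse 20) and 2 were higher without overlap, among them the Schwann cell factor Sox10 (0.243, 1.11 and 0.634 CPM against 1.68, 1.91 and 2.18 CPM, 1.54 ± 0.58).

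Transcripts of the mitochondrial genome were higher too. All 13 had a positive log2 fold change, 9 were higher without overlap, and the median was 0.77 (0.88 without mouse 20). DESeq2 called 2 of them in all 6 tumors and 13 without mouse 20. Their sum was 22456, 24972 and 19672 CPM in control and 38372, 38442 and 43486 CPM in IL-27+cabo tumors. The oxidase subunit mt-Co1 rose without mouse 20 (0.83 ± 0.13), and mt-Nd6 was at 274, 283 and 140.1 CPM in control and 3571, 549 and 562 CPM in IL-27+cabo. The mt-Nd6 value of mouse 20 was the highest by far.

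Mmp13, the collagenase of bone and cartilage remodeling, was the only metalloproteinase lower without overlap (1 of 13 list genes, near the 7.62% of all genes). It was at 17.4, 24.7 and 22.4 CPM in control and 4.80, 3.87 and 4.84 CPM in IL-27+cabo tumors (-2.24 ± 0.27, adjusted p = 0.0623 in edgeR), and it fell without mouse 20 (-2.31, adjusted p = 0.0140), a call lost with all day 14 groups in that fit. Cabo tumors held 9.13, 6.37 and 12.2 CPM and IL-27 tumors 11.3, 44.3 and 16.9 CPM. Outside the lists, Igfbp3, which binds insulin-like growth factors, was at 159, 177 and 171 CPM against 51.8, 40.0 and 26.1 CPM (edgeR adjusted p = 0.0887) and fell in the fit without mouse 20 (-2.37, adjusted p = 0.0122). Penk, the enkephalin precursor, was at 40.3, 39.5 and 43.1 CPM against 299.7, 109.6 and 98.3 CPM (edgeR adjusted p = 0.263) and rose in the fit without mouse 20 (1.33, adjusted p = 0.0122). Mouse 20 was the highest in Penk.

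EdgeR called no gene, with or without mouse 20, in the lists that follow, whose medians are given with all 6 tumors and then without mouse 20. They were 0.08 and 0.14 for 9 tested genes of osteoblasts and osteocytes, -0.25 and -0.30 for 16 of osteoclasts, 0.0027 and 0.34 for 5 osteoclast regulators, -0.41 and -0.76 for 5 of cartilage, 0.02 and 0.17 for 11 of fibroblasts, and -0.47 and -2.38 for 9 of adipocytes. They were 0.94 and 0.24 for 9 of the tumor line, -0.34 and -0.22 for 18 of the cell cycle, -0.27 and -0.41 for 13 of the hypoxia response, -0.11 and -0.09 for 12 of MAPK output and -0.03 and -0.24 for 12 of stress and p53. Without overlap, 5 of the 18 cell cycle genes were lower and 3 of the 9 tumor line genes higher. The shares over all tested genes were 7.62% lower and 7.53% higher. Summed, the cell cycle genes were at 2511 to 3026 CPM in control and 2089 to 2406 CPM in IL-27+cabo tumors. DESeq2 called 1 cartilage gene lower in all 6 tumors. Without mouse 20 it called 2 fibroblast genes higher and 2 adipocyte, 1 osteoclast, 1 cartilage and 1 cell cycle gene lower. Of 498 distinct list genes 469 passed the filter, 28 were below it and 1 had no match.

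The IL-27+cabo tumors were compared directly with cabo alone, and no gene differed at an adjusted p under 0.05 (0% of 18662 tested by edgeR, with 359 under 0.05 before adjustment). The fit without mouse 20 gave 0 as well, with 1043 before adjustment. The 10 of the 12 genes that were tested there had log2 fold changes between -0.70 (Cd3e) and 1.14 (Abra) and adjusted p-values of at least 0.788, and for 8 of the 12 the ranges of both groups overlapped. Without mouse 20, 11 were tested, with log2 fold changes between -0.70 (Cd3e) and 1.05 (Abra) and adjusted p-values of at least 0.778. The ranges of 6 of the 12 overlapped then. The share of all genes whose ranges overlap here was not counted, so these overlap counts do not show likeness. Esm1 was at 0.171, 0.0829 and 0.404 CPM in cabo tumors, Dll4 at 1.25, 1.24 and 1.79 CPM and Flt4 at 0.797, 0.912 and 1.40 CPM, near the IL-27+cabo levels. List medians of the log2 fold change over cabo, with mouse 20 and then without it, were -0.03 and -0.07 for endothelium, -0.39 and -0.26 for the tip cell and Notch list, 0.06 and 0.08 for lymphatic endothelium, -0.31 and -0.12 for the receptors and -0.41 and -0.44 for T cells, beside 0.02 and 0.0026 over all genes. With mouse 20 the lists farthest from 0 were erythroid cells at 1.35 (7 of 7 genes positive), adipocytes at -1.23 (2 of 9 positive) and skeletal muscle at 0.99 (24 of 25 positive). Without mouse 20 the order changed, to adipocytes at -3.53 (0 of 9 positive, 7 with an unadjusted p under 0.05 in edgeR), tendon and synovium at -1.36 (3 of 11 positive, and -0.61 with mouse 20) and skeletal muscle at 0.59 (21 of 25 positive), with erythroid cells at 0.53. Lists whose genes all had 1 sign without mouse 20 included the mitochondrial genome at 0.39 (13 of 13 positive, each with an unadjusted p under 0.05 in edgeR, and 0.38 with mouse 20) and the hypoxia response at -0.39 (0 of 13 positive, 7 with such a p, and -0.30 with mouse 20). The neutrophil list turned from 0.64 to -0.40 and the MHC class II list from 0.16 to -0.41. An adjusted p above the threshold in 3 against 3 tumors does not show that the groups are alike.

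DESeq2 called 3 genes in that comparison (0.0102% of 29317), which were named after their values were seen. Zfp759, a zinc finger gene, was at 0.359, 0.484 and 0.364 CPM in IL-27+cabo, 2.28, 2.63 and 2.33 CPM in cabo, 3.36, 2.65 and 1.62 CPM in control and 2.61, 1.95 and 1.39 CPM in IL-27 tumors. The 3 combination tumors were the lowest of the 12 at day 14. Its log2 fold change over cabo was -2.56 in edgeR (adjusted p = 0.788). Prg4 was at 28.6, 29.0 and 36.9 CPM in cabo, above its level in IL-27+cabo and control, and Ugt1a1 had no count in cabo tumors and 0.303, 0.900 and 0.574 CPM in IL-27+cabo tumors.

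The change from control to IL-27+cabo at day 14 was also tested against the same change at EOS, and 0 genes differed at an adjusted p under 0.05 (0% of 20639 tested by edgeR, 1086 at an unadjusted p under 0.05). DESeq2 called 125 (0.402% of 31115), 50 with the more positive and 75 with the more negative change at day 14. At EOS, Dll4 was at 17.7 and 8.72 CPM in control and 16.7 and 18.4 CPM in IL-27+cabo tumors, Flt4 at 14.3 and 15.4 CPM against 18.5 and 19.2 CPM, and Mest at 24.4 and 15.1 CPM against 37.1 and 76.9 CPM. These levels all lay above those of the day 14 combination. The lowest adjusted p of the 12 genes was 0.071 and the highest 0.980. Without mouse 20, the change differed for 7 genes by edgeR (0.0344% of 20352), all more negative at day 14, namely Flt4, Ednrb, Ephb1, Hey1, Mest, Pcdh12 and Dll4, named after their values were seen. Their differences in log2 fold change ran from -2.51 (Ednrb) to -4.98 (Ephb1), with adjusted p-values of 0.044 to 0.0489. Pcdh12, an endothelial protocadherin, was at 8.61, 9.53 and 4.59 CPM in day 14 control, 0.0756, 0.564 and 0.756 CPM in day 14 IL-27+cabo, 6.48 and 5.64 CPM in EOS control and 10.3 and 15.4 CPM in EOS IL-27+cabo tumors. Each EOS group has 2 tumors.

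**Figure D4:**
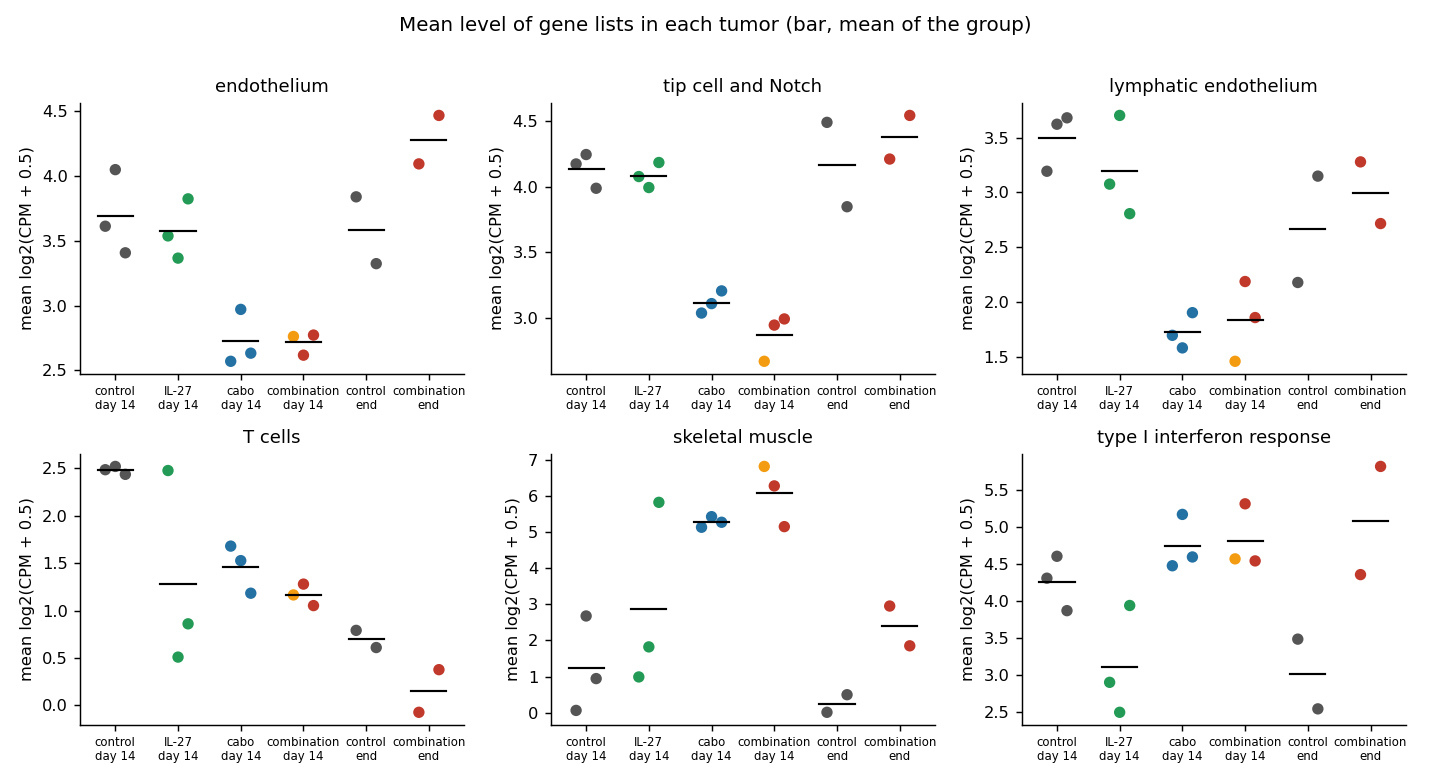
Mean log2(CPM + 0.5) of 6 gene lists in each tumor, by treatment at day 14 and, for control and IL-27+cabo, at the end of the study, with 1 point per tumor, mouse 20 in orange and a bar at each group mean. The endothelial and tip cell lists are lowest in the cabo and IL-27+cabo tumors of day 14. T cell RNA is highest in day 14 controls and mouse 4. Skeletal muscle RNA is high in the cabo and IL-27+cabo tumors of day 14 and in mouse 8.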

How the data were processed

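Stranded poly(A) libraries came from RNA of integrity number 8 or higher and were read from both ends. The deposited values are raw counts, whole numbers for each Ensembl gene in 24 tumors, and the authors had not normalized them. Their methods name cutadapt for trimming, HISAT2 for mapping, StringTie for assembly, and StringTie with ballgown for expression levels as FPKM. Which program and annotation gave the deposited whole-number counts is not given in the sources used here. The processing notes list GRCh38, a human build, although 55141 of 55401 identifiers matched mouse genes of GENCODE M21 on GRCm38, whose names and coordinates are used. In the 6 libraries 31.7% to 35.5% of low values were multiples of 4, for a reason that is not given, and division by 4 was an alternative. With 63729005 to 75305934 counts per tumor the precision rests on the 3 tumors a group, which came from separate mice.

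The counts were fitted with edgeR 4.0.16 in R 4.3.3 (filterByExpr, TMM, quasi-likelihood F test, two-sided, Benjamini-Hochberg over all tested genes), with only the compared groups in each fit. DESeq2 1.42.0, RLE scaling, no filter, all day 14 groups in 1 fit, a muscle score covariate, a GC and length correction and leaving out each tumor were alternatives. DESeq2 and the fit of all day 14 groups, each without mouse 20, were added after seeing the data. The scripts were tested on simulated data.

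The tumors were set by label. The gene lists, tests and the rule for named genes were chosen with earlier results of these data known. The rule names called genes, the 8 of smallest p in each direction at the study's limits and in the fit without mouse 20, receptors, ligands and IL-27 genes, and per list up to 4 members of smallest p and any called member. Genes covered by it that are not reported here singly enter the list counts. Pecam1, Prox1, Foxp3, Cd8a, Cd8b1, Acta1 and the markers at 0 are further list members, named after their values were seen.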

Additional observations from a re-analysis of the deposited data

How the results depend on the processing

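The 12 genes kept their direction in every alternative and were called under DESeq2, RLE scaling, the GC and length correction, DESeq2 without mouse 20 and edgeR without mouse 20. Of the 12, 10 were called without the filter, 8 with all day 14 groups in 1 fit (with or without mouse 20), 8 with counts divided by 4, and 0 with the muscle score as a covariate or without any one tumor other than mouse 20. Higher genes at an adjusted p under 0.05 numbered 291 under DESeq2, 522 under DESeq2 without mouse 20, 14 with the GC and length correction, 21 with all day 14 groups and no mouse 20, 2 with counts divided by 4, 0 with the muscle covariate and 0 to 93 without one tumor. Lower genes numbered 157, 394, 20, 39, 24 with all day 14 groups, 0 with the muscle covariate and 0 to 82 without one tumor. At the study's limits, higher genes numbered 873 under DESeq2, 852 with all day 14 groups, 58 with the muscle covariate and 385 to 1063 without one tumor, and lower genes 301, 312 without the filter, 94 with the muscle covariate, 127 with counts divided by 4, 393 under DESeq2 without mouse 20, 290 with all day 14 groups and no mouse 20, and 162 to 317 without one tumor. Against cabo alone DESeq2 called 3 genes, and for the day 14 change minus the EOS change DESeq2 called 125 and the fits without one tumor 0 to 7. The cause of these shifts was not tested.

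Of the 99 genes followed through the alternatives, those that turned sign were near 0 or moved with mouse 20, the muscle score or a control tumor. Flt3 went from -0.19 to 0.24 without mouse 3, and Vegfa from -0.27 to 0.0014 without mouse 5. Egfl7 went to -0.0062 under DESeq2, -0.026 without the filter, -2.08 with the muscle covariate, -0.57 with the GC and length correction, and, without mouse 20, -1.15 in DESeq2 and -1.15 with all day 14 groups. With the muscle covariate Met turned to 1.43, Axl 0.34, Mertk 1.15, Flt3 0.70, Ntrk2 -0.070, Foxp3 0.010, Il27 -1.05, Tnni2 -0.15, Acta1 -1.27, Thbs4 -1.81, Fmod -0.62, Hras -0.75, Des -2.34 and Sox10 -0.40. Without mouse 20 (DESeq2, then all day 14 groups) Met was 0.31 and 0.30, Mertk 0.25 and 0.24, Ntrk2 -0.15 and -0.16, and Hras -0.14 and -0.15. Leaving out each tumor in turn in edgeR gave ranges of -1.15 to 0.39 for Egfl7, -0.46 to 0.30 for Met, -0.61 to 0.24 for Mertk, -0.19 to 0.0021 for Tyro3, -0.47 to 0.24 for Flt3, -0.16 to 0.31 for Ntrk2, -0.67 to 0.0014 for Vegfa and -0.15 to 1.37 for Hras. No paired analysis was possible because the compared groups share no mouse number.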
